A study of Homo sapiens with 6 samples.

Results

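Hippo pathway output was examined in SH-SY5Y cells through 10 genes: the coactivator genes YAP1 and WWTR1, their DNA-binding partner gene TEAD1, and 7 genes that YAP and TAZ are known to activate, ANKRD1, CCN1, CCN2, AMOTL1, AMOTL2, AJUBA and LATS2. The genes were taken by symbol from the count and FPKM tables, where all 10 of 10 were found among 28862 genes. SH-SY5Y is an established line from a human neuroblastoma and mostly of the adrenergic state. It was given a control plasmid (3 libraries) or is labelled as overexpressing SMN1 (3 libraries), and messenger RNA was sequenced. The sources used here do not give how the plasmid was delivered, how long the cells were kept or whether the overexpressing cells were a clone. The labels do not say whether each library had a culture of its own, so each spread and p-value is that of these libraries and may be technical. SMN1 stood at 20.02 ± 0.432 CPM in the control and 16.0 ± 1.08 CPM in the other group, below the control, so the latter is called the SMN1-labelled group and every direction is between libraries as labelled.

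YAP1 and the product of WWTR1, called TAZ, carry no DNA-binding domain of their own. In the nucleus they bind TEAD proteins on DNA and switch on genes of growth, adhesion and the cytoskeleton. The Hippo kinases, LATS2 among them, phosphorylate YAP and TAZ and hold them in the cytoplasm, and some of the target genes encode brakes on the same pathway. In neuroblastoma, YAP and TAZ are best known from the mesenchymal cell state.

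TEAD proteins bind the letters CATTCC, read as GGAATG on the other strand. These letters were searched on both strands of the 250 bases before each annotated transcription start, in windows from RefSeq on GRCh38.p14. Windows were found for 8 of the 10 genes (CCN1 and TEAD1 had none in that table), and 5 of the 8 genes held a match in at least 1 window: ANKRD1, CCN2, YAP1, AMOTL2 and AJUBA. Of all 35116 windows of that length 11.9% held a match, and 14.3% of 27305 genes held one in at least 1 window. The genes were chosen as YAP1, WWTR1, TEAD1 and known targets, so the share with a match is not independent of that choice. The sequences around the matches are printed with the match in capitals, each read on the strand of its gene.

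CCN2 held 3 matches, whose first bases lay 169, 104 and 95 bases before the start. Only 0.0826% of all windows held 3 or more. The stretch that contains them is chr6:131951450-131951553, minus strand.
CCN2: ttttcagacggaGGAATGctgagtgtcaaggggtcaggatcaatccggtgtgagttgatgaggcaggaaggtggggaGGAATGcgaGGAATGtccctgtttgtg

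ANKRD1 held 2 matches, 220 and 128 bases before the start, and 0.940% of all windows held 2 or more. Their surroundings are chr10:90921290-90921319 and chr10:90921198-90921227, minus strand. The second lies inside the gene as GENCODE v29 draws it, which begins further upstream, at 90921276.
ANKRD1, first match: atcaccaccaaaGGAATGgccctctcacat
ANKRD1, second match: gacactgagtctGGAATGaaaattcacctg

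YAP1 (chr11:102110273-102110302, plus strand) held 1 match 162 bases before its start. AMOTL2 (chr3:134374499-134374528, minus strand) and AJUBA (chr14:22976884-22976913, minus strand) each held 1, at the second of their 2 annotated starts, 69 and 59 bases before it.
YAP1: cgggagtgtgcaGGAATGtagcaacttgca
AMOTL2: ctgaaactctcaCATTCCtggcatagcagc
AJUBA: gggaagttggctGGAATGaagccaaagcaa

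AMOTL1 and WWTR1 had no match in these windows. Their windows lie inside the genes as GENCODE v29 draws them, which begin further upstream. Those beginnings, at 94706431 for AMOTL1 and 149736714 for WWTR1, had no window and were not searched. LATS2 had 1 match that began 10 bases past its RefSeq start. That match lies upstream of LATS2 as GENCODE v29 draws it, which begins at 21061547 on the minus strand. A match is a description of letters and says nothing on whether a TEAD protein was bound. Across 10995 tested genes with a window, the 1416 with a match had a median log2 fold change of 0.02 (SMN1-labelled relative to control), against 0.01 for the rest.

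**Figure D1:**
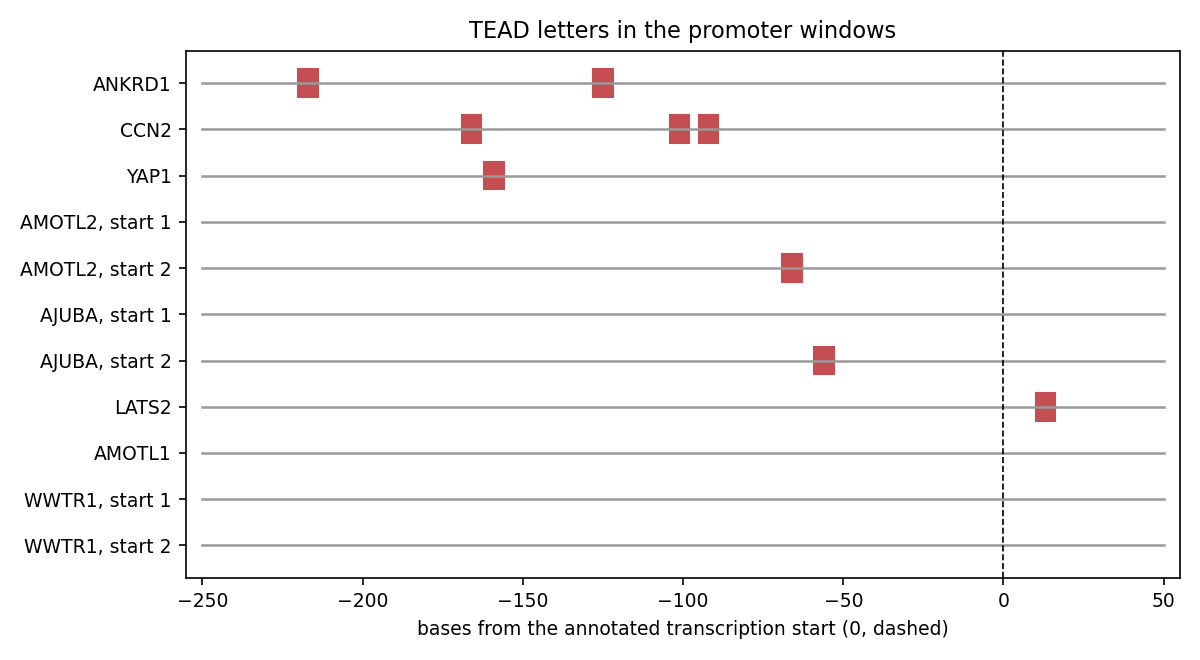
Each line is 1 promoter window, from 250 bases before to 50 after an annotated start (x axis, bases; the dashed line marks the start), and each red block is a match to the TEAD letters. ANKRD1 carries 2 blocks and CCN2 carries 3, all upstream, whereas WWTR1 and AMOTL1 carry none.

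The 6 libraries held 30379242 to 40275498 reads assigned to genes. Levels are given in CPM, the read count scaled to library size after TMM adjustment, as mean ± SD (n = 3 libraries). The 10 genes were chosen by their place in the pathway and with their fold changes between these 2 groups already known. Their values are therefore a description without a test, and the counts over the 10 are supported by nothing independent. Of the 10 genes 9 passed the filter on low counts, and LATS2 did not. By edgeR's quasi-likelihood test with an adjusted p of at most 0.05, 4 were called higher and 1 lower in the SMN1-labelled libraries, 5 of 9. Over all 15829 genes tested 56.2% were called (28.0% higher and 28.2% lower), a background from which nothing is read here, since the genes were chosen on this comparison. On the deposited FPKM values 62.5% of all calls were higher, against 49.8% on the counts. The FPKM sums were 308575 to 313782 per control library and 279585 to 280450 per SMN1-labelled library. The groups did not overlap for 6 of the 9 genes (5 higher, 1 lower), beside 60.7% of all genes tested (30.4% higher, 30.2% lower). The median log2 fold change of the 9 was 0.06, and that of all genes tested was 0.00087.

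ANKRD1 had the largest log2 fold change of the 9 genes tested. It encodes a cardiac and stress-induced ankyrin repeat protein found in the nucleus and at the sarcomere, and it is one of the most used readouts of YAP and TAZ. The gene lies at chr10:90912096-90921276 (GRCh38, minus strand). Its reads numbered 340, 343 and 303 under the control plasmid and 1060, 1342 and 1072 under the SMN1 label, or 11.3, 11.2 and 10.4 CPM against 31.7, 32.3 and 32.6 CPM. The lowest SMN1-labelled library was thus far above the highest control library, and libraries of a group differed little (coefficient of variation 4.39% and 1.51%). The fitted difference was 2.92-fold (log2 fold change 1.55, SE 0.06), the 24th largest increase among 15829 genes. The log2 fold change stayed between 1.48 and 1.62 over all 17 alternative processings. In bulk libraries such as these, a change in how many cells hold a transcript and a change in transcripts per cell cannot be told apart.

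CCN1 and CCN2, the other standard readouts, differed in opposite directions. Both encode secreted matricellular proteins that bind integrins, formerly called CYR61 and CTGF, and both are induced quickly by serum, stretch and YAP. CCN1 lies at chr1:85580761-85583962 (plus strand) and CCN2 at chr6:131948176-131951373 (minus strand).

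CCN1 was the only one of the 10 genes that was lower without overlap between groups. Its reads numbered 372, 397 and 359 under the control plasmid and 182, 234 and 156 under the SMN1 label. The level was 12.4, 13.0 and 12.4 CPM against 5.43, 5.63 and 4.75 CPM, 2.38-fold lower (log2 fold change -1.25, SE 0.08). Every SMN1-labelled library was below every control library by more than the range within either group. On log2(FPKM + 1) the log2 fold change was -0.79, the value nearest to 0 among the alternatives.

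CCN2 went the other way at a much lower read depth. It had 67, 91 and 77 reads under the control plasmid and 133, 185 and 119 under the SMN1 label, 2.23, 2.98 and 2.65 CPM against 3.97, 4.45 and 3.62 CPM. The groups did not overlap, and the gap between them, 2.98 to 3.62 CPM, was smaller than the range within either group. The fitted difference was 1.54-fold (log2 fold change 0.62, SE 0.14), from 0.52 to 0.73 with single libraries left out. An antisense gene shares 195 nt (8.3%) of the exons of CCN2, and the sources used here do not say whether counting used the strand.

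The balance between the 3 readouts therefore differed between the groups in every library. Per length, on the deposited FPKM scale, ANKRD1 was 1.74 to 1.89 times CCN1 under the control plasmid and 11.8 to 14.2 times CCN1 under the SMN1 label. The ratio of CCN1 to CCN2 was 3.50, 2.77 and 2.96 under the control plasmid and 0.866, 0.80 and 0.828 under the SMN1 label. CCN1 was thus above CCN2 in each control library and below it in each SMN1-labelled library. ANKRD1 was 5.57 ± 0.910 times CCN2 in the control group and 10.6 ± 1.16 times in the SMN1-labelled group. A ratio within a library does not depend on its scaling, but it does not say which gene changed.

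**Figure D2:**
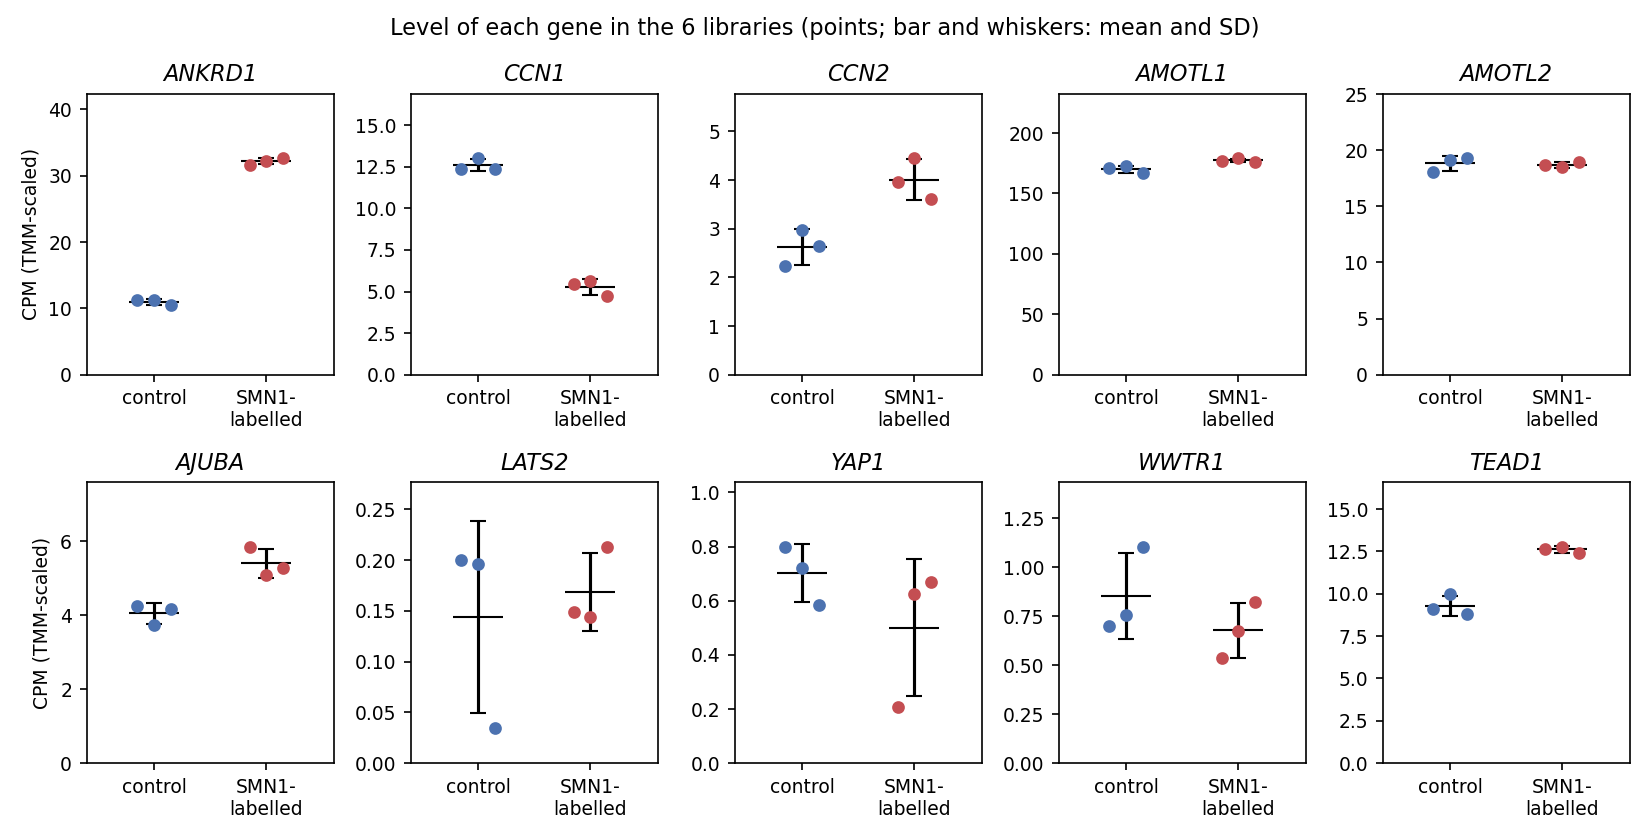
Each panel shows 1 gene, with CPM on the y axis from 0, a point for each library, and the mean with its SD in black. The groups are far apart for ANKRD1 (up) and CCN1 (down), separate by less for CCN2, AJUBA and TEAD1, and overlap for AMOTL2, LATS2, YAP1 and WWTR1.

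The angiomotin-like genes differed little between the groups. Angiomotins are junction and actin proteins that bind YAP and TAZ and keep them out of the nucleus, and AMOTL2 is a widely used YAP target. AMOTL1 (chr11:94706431-94876753, plus strand) was the deepest sequenced of the 10, with 4837 to 5267 reads in control and 5792 to 7447 in SMN1-labelled libraries. Its level was 171, 173 and 167 CPM in the control and 177, 179 and 176 CPM in the SMN1-labelled libraries. The groups were separate but close, at 1.04-fold (log2 fold change 0.06, SE 0.03), and this was not among the calls. The sign depended on the processing: the log2 fold change was -0.02 once edgeR was corrected for length and GC content of the genes, and 0.15 on log2(FPKM + 0.1).

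AMOTL2 (chr3:134355874-134375479, minus strand) stood at 18.1, 19.2 and 19.3 CPM in the control and 18.7, 18.5 and 19.0 CPM in the SMN1-labelled libraries. The groups overlapped, with a log2 fold change of -0.01 (SE 0.06) that was 0.08 after the correction for length and GC content. On FPKM the groups were separate, 2.57 to 2.72 in the control and 2.77 to 2.86 in the SMN1-labelled libraries. Per length AMOTL1 was 5.84 ± 0.254 times AMOTL2 in the control group and 6.12 ± 0.135 times in the SMN1-labelled group, ranges that overlapped. The third member of the family, AMOT, named here for that kinship after its value was seen, rose 1.24-fold (from 13.5 ± 0.105 to 16.7 ± 0.519 CPM, edgeR adjusted p = 0.000175).

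AJUBA, a LIM-domain protein that binds LATS kinases at junctions and restrains them, was higher in the SMN1-labelled libraries. The gene is at chr14:22971174-22982642 (minus strand). Its level was 4.26, 3.73 and 4.17 CPM in the control and 5.85, 5.10 and 5.29 CPM in the SMN1-labelled libraries, from 114 to 212 reads. No library of one group reached the other, and the fitted difference was 1.33-fold (log2 fold change 0.41, SE 0.11).

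LATS2, the kinase that YAP induces as a brake on itself, was barely detected. It had 6, 6 and 1 reads under the control plasmid and 5, 6 and 7 under the SMN1 label. Over each group that is 0.145 CPM (exact 95% Poisson interval 0.0773 to 0.248) and 0.167 CPM (0.0988 to 0.263), intervals that cover counting error only. A difference between the groups was not detectable at this depth. The paralog LATS1, named for its kinship after its value was seen, was at 0.627 ± 0.0586 and 0.777 ± 0.0153 FPKM, where LATS2 was at 0.0233 ± 0.0115 and 0.0300 ± 0.0100 FPKM. LATS1 was not called (log2 fold change 0.21, SE 0.10, edgeR adjusted p = 0.0669). Its groups did not overlap in CPM, with the SMN1-labelled libraries higher.

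The coactivators themselves were close to the limit of detection in both groups. YAP1 (chr11:102110461-102233423, plus strand) had 24, 22 and 17 reads in the control and 7, 26 and 22 in the SMN1-labelled libraries. That is 0.799, 0.721 and 0.586 CPM against 0.209, 0.625 and 0.669 CPM. The first SMN1-labelled library alone was low, and the other two lay within the control range. The log2 fold change of -0.47 had an SE of 0.33, and without that library it was -0.12.

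WWTR1 (chr3:149517235-149736714, minus strand) had 21, 23 and 32 reads in the control and 18, 28 and 27 in the SMN1-labelled libraries. Its level was 0.699, 0.753 and 1.10 CPM against 0.537, 0.673 and 0.821 CPM, and the groups overlapped (log2 fold change -0.33, SE 0.27). An antisense gene shares 795 nt (9.4%) of the WWTR1 exons, and another shares 628 nt of those of YAP1. Neither coactivator was called, and with 55 to 76 reads per gene and group differences of this size were not detectable at this depth.

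TEAD1, one of 4 genes for the DNA-binding partners, was higher in the SMN1-labelled libraries. It lies at chr11:12674591-12944483 (plus strand). Its level was 9.12, 9.96 and 8.79 CPM in the control and 12.7, 12.8 and 12.4 CPM in the SMN1-labelled libraries, with no overlap and a 1.36-fold difference (log2 fold change 0.44, SE 0.07). After the correction for length and GC content the log2 fold change was 0.19. TEAD1 has 10279 nt of annotated exons, the longest of the 10 genes, and its GC content is 41.3%. Across 15663 genes the fold change was higher in longer genes (Spearman's rho 0.34) and lower in genes of higher GC content (rho -0.43), both as a description.

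Its paralogs were lower. TEAD2 fell 1.33-fold (24.6 ± 1.59 to 18.5 ± 0.333 CPM, edgeR adjusted p = 1.61e-06) and TEAD4 1.37-fold (9.98 ± 0.713 to 7.29 ± 0.297 CPM, edgeR adjusted p = 5.78e-05). TEAD3 stood at 7.97 ± 0.816 and 6.82 ± 0.320 CPM (log2 fold change -0.22, edgeR adjusted p = 0.0429), a fragile call. It was lost without the first control library or without any 1 of the SMN1-labelled libraries, with DESeq2, on FPKM and without a filter, and its sign turned after the length and GC correction (0.0397, adjusted p = 0.743, within 0.0235 to 0.743 over the alternatives). TEAD2 kept its call after that correction with a smaller log2 fold change, -0.16 in place of -0.41. The call of TEAD4 was also lost (adjusted p = 0.15, within 5.37e-06 to 0.15 over the alternatives). Per length TEAD1 was the least of the 4 in both groups: 0.793 ± 0.0611 and 1.14 ± 0.0153 FPKM, beside 7.56 ± 0.566 and 6.04 ± 0.0808 FPKM for TEAD2. Its share of the summed TEAD FPKM was 5.09%, 5.70% and 5.36% in the control and 9.05%, 9.31% and 9.15% in the SMN1-labelled libraries, while the sum went from 14.7 ± 0.816 to 12.5 ± 0.125 FPKM.

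On the deposited FPKM scale, which allows levels to be compared between genes, the order of the 10 genes differed between the groups. In the control libraries AMOTL1 was first at 15.5 ± 0.452 FPKM and ANKRD1 next at 5.62 ± 0.312. CCN1 (3.11 ± 0.114), AMOTL2 (2.66 ± 0.0777), CCN2 (1.02 ± 0.145), TEAD1 (0.793 ± 0.0611) and AJUBA (0.63 ± 0.0458) followed. YAP1 (0.103 ± 0.0208), WWTR1 (0.0933 ± 0.0231) and LATS2 (0.0233 ± 0.0115) were last, and YAP1 and WWTR1 did not differ beyond their spread.

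In the SMN1-labelled libraries ANKRD1 (17.5 ± 0.358 FPKM) stood level with AMOTL1 (17.2 ± 0.171). Their libraries overlapped, 17.08 to 17.79 against 17.01 to 17.35. CCN1 (1.38 ± 0.119 FPKM) had dropped below AMOTL2 (2.81 ± 0.0473) and CCN2 (1.67 ± 0.172). YAP1 and WWTR1 again overlapped (0.03 to 0.10 FPKM), a range in which the rounding to 2 decimals is coarse.

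**Figure D3:**
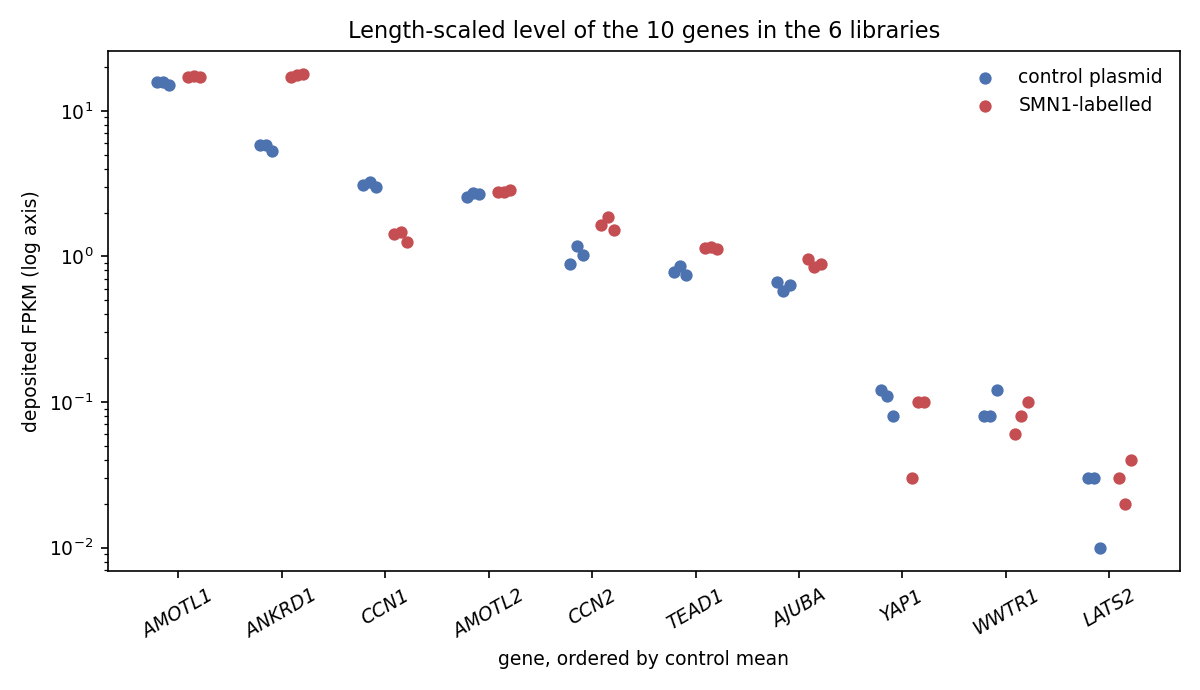
Deposited FPKM (y axis, log scale) of the 10 genes in order of their control mean, with 1 point per library, blue for control and red for SMN1-labelled. ANKRD1 climbs to the level of AMOTL1 and CCN1 drops below CCN2, and YAP1, WWTR1 and LATS2 lie at or below 0.12 FPKM in every library.

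Among the 9 genes the precision followed the number of reads. The SE of the log2 fold change was 0.03 for AMOTL1, 0.06 for ANKRD1 and AMOTL2, 0.14 for CCN2 and 0.33 for YAP1. The order of the fold changes was the same at both ends under the 3 scales plotted: ANKRD1 was highest and CCN1 lowest. The sizes in between varied with the scale, and the signs of AMOTL1 and AMOTL2 did too. After the length and GC correction the log2 fold changes of YAP1, WWTR1 and AMOTL1 were -0.66, -0.58 and -0.02.

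**Figure D4:**
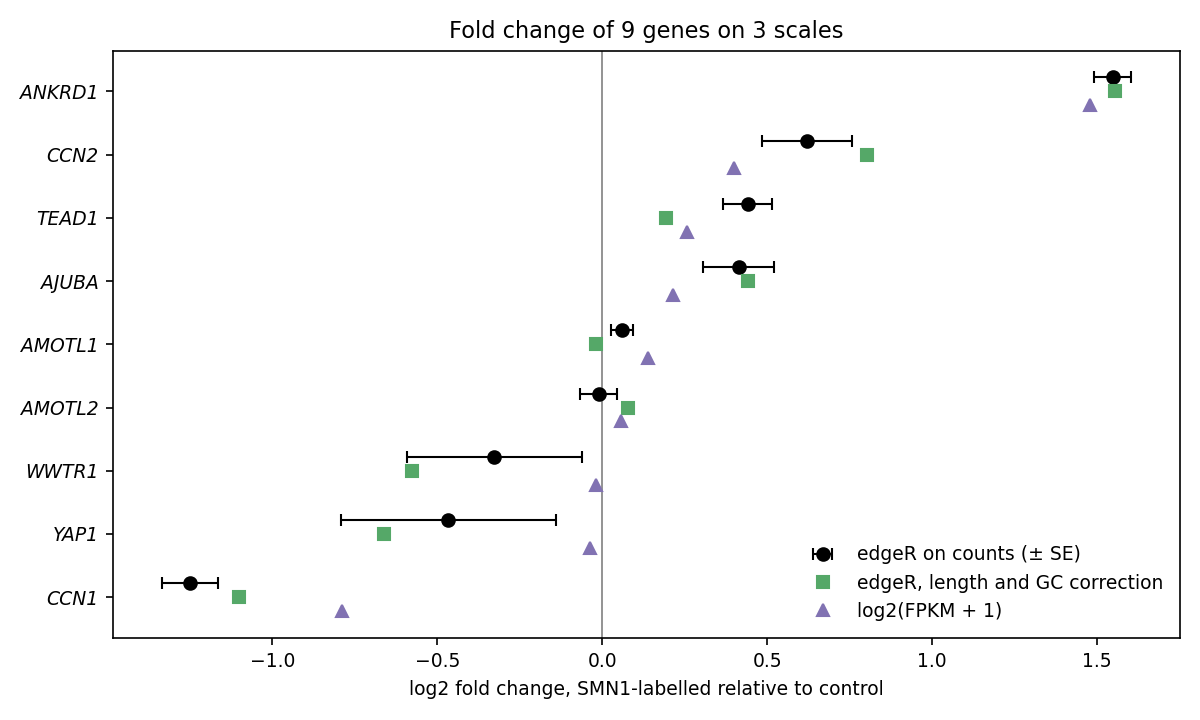
Log2 fold change of the 9 genes tested (x axis, SMN1-labelled relative to control) from edgeR on counts with its SE (black), from edgeR with a length and GC correction (green) and on log2(FPKM + 1) (purple). ANKRD1 lies near 1.5 on each scale and CCN1 between -1.25 and -0.79, while AMOTL1 and AMOTL2 lie on either side of 0.

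The other genes of the pathway were taken from 7 lists without the 10 genes, 95 genes of which 90 have a row in the count table and 82 were tested. Of these, 32 rose and 26 fell (edgeR adjusted p at most 0.05), 70.7% called beside the background of 56.2%. The lists were chosen with earlier results of these data known, so nothing is read from that difference in shares. Their median log2 fold change was 0.02.

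Other YAP and TAZ targets went both ways. The list is a published target signature without the 5 of its genes already described. Of 15 tested, 6 rose and 5 fell (median log2 fold change -0.04). IGFBP3, a binding protein for insulin-like growth factors, fell 2.30-fold (4.48 ± 0.313 to 1.93 ± 0.252 CPM, edgeR adjusted p = 6.13e-08), and the receptor kinase gene AXL fell 2.20-fold (1.75 ± 0.395 to 0.797 ± 0.00825 CPM, edgeR adjusted p = 8.69e-05). CCDC80, a secreted matrix protein, fell 1.57-fold (35.5 ± 0.427 to 22.7 ± 0.664 CPM, edgeR adjusted p = 5.64e-11) and MYOF, a membrane repair protein, 1.66-fold (edgeR adjusted p = 0.000132). In the other direction NT5E, the ectonucleotidase CD73, rose 1.45-fold (2.89 ± 0.173 to 4.20 ± 0.0827 CPM, edgeR adjusted p = 0.000501) and the cytokine gene TGFB2 1.39-fold (edgeR adjusted p = 0.000959). ASAP1, which acts on ARF GTPases, rose 1.23-fold (57.0 ± 1.76 to 69.9 ± 0.277 CPM) and the growth arrest gene GADD45A 1.19-fold (86.1 ± 3.93 to 102 ± 2.88 CPM). After the length and GC correction 5 rose and 5 fell with a median of 0.03, and the log2 fold change was 0.10 in place of 0.29 for ASAP1 and 0.45 in place of 0.25 for GADD45A. TGFB2 lost its call there (adjusted p = 0.0617, within 0.000163 to 0.0617 over the alternatives).

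Genes of the Hippo kinase cascade, which holds YAP and TAZ inactive, were called higher more often than lower. Of 21 tested, 12 rose and 2 fell (median log2 fold change 0.26). STK4, which encodes the upstream kinase MST1, rose 1.51-fold (34.9 ± 0.986 to 52.9 ± 1.85 CPM, edgeR adjusted p = 5.29e-11). MAP4K4, a kinase that acts on LATS in parallel to MST1, rose 1.29-fold from 767 ± 5.20 to 992 ± 32.5 CPM (edgeR adjusted p = 1.56e-09), and TAOK3 and TNIK, kinases of the same STE20 group, each rose 1.37-fold. MAP4K2 fell 1.32-fold (10.7 ± 0.215 to 8.13 ± 0.320 CPM, edgeR adjusted p = 8.60e-05). MAP4K1 was called lower on 10, 22 and 18 against 11, 16 and 4 reads (edgeR adjusted p = 0.0378). That call was lost without control library 2 or 3 and without SMN1-labelled library 1 or 3. It was also lost with DESeq2 (adjusted p = 0.146, range over its alternatives 0.0143 to 0.21). The same held after the length and GC correction (adjusted p = 0.111) and on log2(FPKM + 1) without a filter (adjusted p = 0.21). With length and GC corrected for, 9 of the 21 rose and 1 fell, with a median of 0.10, and the 4 kinases named as higher kept their calls with log2 fold changes of 0.24 to 0.39.

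Junction, polarity and cadherin genes upstream of the kinases were also called higher more often than lower, with 9 of 16 tested up and 1 down (median log2 fold change 0.33). FAT1, a giant protocadherin that feeds into the Hippo kinases, rose 1.92-fold, from 96.5 ± 4.20 to 186 ± 3.31 CPM (edgeR adjusted p = 2.08e-15). Its reads numbered 2757 to 3091 in the control and 6166 to 7640 in the SMN1-labelled libraries. The scaffold genes MPDZ, DLG1 and TJP1 rose 1.43-, 1.32- and 1.27-fold, with edgeR adjusted p from 1.12e-08 to 2.43e-06. DCHS1, the cadherin partner of FAT4, fell 1.25-fold (62.9 ± 2.85 to 50.2 ± 0.184 CPM, edgeR adjusted p = 4.09e-07). After the length and GC correction 7 rose and 2 fell, with a median of 0.15. MPDZ, TJP1 and DLG1 kept their calls at log2 fold changes of 0.31, 0.16 and 0.14, and DCHS1 at -0.21.

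In the list of TEAD paralogs and vestigial-like cofactors, all 4 genes tested were called, the 3 TEAD genes lower and VGLL4 higher. With length and GC corrected for, 1 of the 4 rose and 1 fell. The median log2 fold change was then -0.05 in place of -0.32. VGLL4 competes with YAP for TEAD, and it rose 1.13-fold (50.5 ± 1.48 to 57.2 ± 0.678 CPM, edgeR adjusted p = 0.000492). VGLL1 and VGLL3 had 0 to 2 reads in every library. Of the other CCN and ankyrin repeat family genes, 3 were near 0 as well: CCN3 and CCN5 had 2 reads each over the control libraries and 0 over the SMN1-labelled ones, and ANKRD2 had 0 to 3 reads in a library. ANKRD23, at 182 to 271 reads per library, was the only 1 tested (6.91 ± 0.576 and 6.81 ± 0.261 CPM, edgeR adjusted p = 0.835). FOXF2, VGLL2, DCHS2, CCN4 and CCN6 were not analysed here.

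CCN1, CCN2 and ANKRD1 also answer to serum response factor and its MRTF coactivators, which sense actin. Of 18 such factors and targets tested 3 rose and 9 fell (median log2 fold change -0.18). SRF itself rose 1.24-fold (41.8 ± 2.36 to 51.9 ± 3.02 CPM, edgeR adjusted p = 7.17e-06), as did MRTFB and the focal adhesion gene VCL, 1.22- and 1.16-fold. The calls of MRTFB and VCL were lost after the length and GC correction (adjusted p = 0.297, within 0.000356 to 0.297 over its alternatives, and 0.459, within 1.13e-05 to 0.459). The actin-binding genes CNN2 and TPM2 fell 2.66-fold (12.8 ± 1.21 to 4.82 ± 0.251 CPM) and 1.66-fold, ACTB fell 1.33-fold and TPM1 1.25-fold, with edgeR adjusted p from 5.03e-12 to 1.63e-08. After the correction 5 of the 18 rose and 6 fell, with a median of -0.02, and the log2 fold change was 0.51 in place of 0.31 for SRF and -0.23 in place of -0.41 for ACTB.

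AP-1 factors, which sit beside TEAD at many YAP-bound enhancers, fell in 6 of 7 cases, and 1 rose. FOS fell 10.6-fold (51.2 ± 0.676 to 4.85 ± 0.290 CPM, edgeR adjusted p = 2.89e-22) and FOSB 12.6-fold (7.37 ± 0.622 to 0.582 ± 0.0675 CPM, edgeR adjusted p = 5.51e-15). JUNB fell 1.56-fold (32.0 ± 1.32 to 20.6 ± 0.442 CPM) and JUN 1.42-fold (164 ± 5.54 to 115 ± 1.83 CPM), whereas FOSL2 rose 1.27-fold (edgeR adjusted p = 0.00124). After the length and GC correction again 6 fell and 1 rose, and the median log2 fold change was -0.31 in place of -0.64. JUNB stood at -0.27 in place of -0.64 and JUN at -0.31 in place of -0.51. CCN1 was lower in the same 3 libraries, and the part of AP-1 in its level was not tested.

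**Figure D5:**
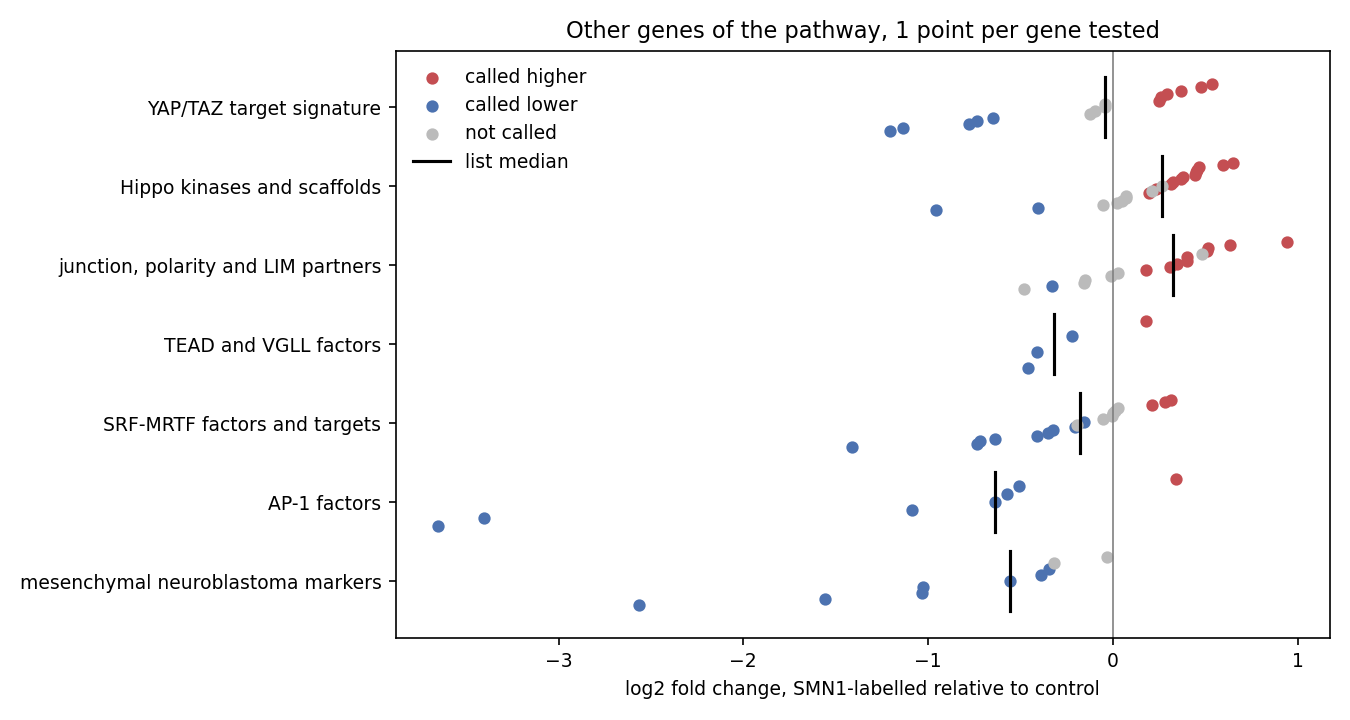
Log2 fold change (x axis) of each gene tested in 6 pathway lists and the mesenchymal marker list, with 1 point per gene, red called higher, blue called lower, grey not called, and the list median as a bar. Kinase and junction genes lie mostly right of 0, AP-1 factors and mesenchymal markers mostly left, and the target signature on both sides.

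Markers of cell state moved with the groups. Adrenergic markers were abundant, with DBH, the enzyme that makes noradrenaline, at 1329 ± 64.4 CPM in the control, though tyrosine hydroxylase (TH) had 9 reads or fewer in every library. All 8 adrenergic markers tested were called, 4 higher and 4 lower, and their summed level was 17566 to 18841 CPM in the control and 19332 to 20361 CPM in the SMN1-labelled libraries. Of 9 mesenchymal markers tested 7 fell and none rose, and their sum was 315 to 323 CPM in the control and 176 to 186 CPM in the SMN1-labelled libraries. VIM supplied most of it (189 ± 3.25 to 92.6 ± 1.49 CPM, 2.04-fold lower, edgeR adjusted p = 8.96e-17). COL1A1 fell 2.94-fold (21.7 ± 1.33 to 7.44 ± 1.28 CPM), and COL1A2 was near 0 in both groups, at 10 reads or fewer. Schwann cell markers summed to 3.80 to 5.34 CPM in the control and 2.37 to 2.63 CPM in the SMN1-labelled libraries, with 2 of 3 tested lower. The mesenchymal markers fell together with CCN1, IGFBP3 and AXL and against ANKRD1 and CCN2, and their part in those differences was not tested.

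The genes whose profile over the 6 libraries was nearest to that of ANKRD1, by distance between mean-centred log2 CPM among 10362 genes that reached 5 CPM in either group, were ARHGAP36 (distance 0.0894), PHLDA1 (0.102), LAMA3 (0.177), VSNL1 (0.304) and NELL2 (0.344). ARHGAP36 went from 153 ± 5.21 to 438 ± 12.9 CPM and PHLDA1 from 3.53 ± 0.314 to 10.4 ± 0.286 CPM. Nearest to CCN2 were PPP1R3B (0.131), JRKL (0.141), UFL1 (0.159), ELOVL4 (0.16) and BBX (0.177). With 2 groups of 3 libraries, such a distance reflects mainly the size of the difference between the groups, and none of the 10 is on the 7 lists.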

How the data were processed

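RNA from SH-SY5Y cells was made into stranded mRNA libraries and sequenced as paired reads on an Illumina NovaSeq, per the labels' protocols. GRCh38, HISAT2 and DESeq2 are named without versions in the submitters' processing notes. The counting tool, its annotation and its strand setting are not given in these sources. The deposited counts are whole numbers of reads for 28862 genes, and the deposited FPKM table holds length- and depth-scaled values rounded to 2 decimals. Columns were matched to samples by title.

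R 4.3.3 and edgeR 4.0.16 were used to test the counts (filterByExpr at its defaults, TMM scaling, quasi-likelihood fit on group, two-sided, Benjamini-Hochberg over all genes tested). The SE is the log2 fold change, without sign, divided by the root of F. The steps were tested on simulated counts. The genes, lists and the rule for naming list genes (at most 4 called in each direction per list, in order of p) were chosen with earlier results of these data known.

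Of each library, 3 reads correspond to 0.0721 to 0.103 CPM. The chi-square statistic between libraries of a group, divided by its degrees of freedom, was 2.52 to 4.40, above counting noise. Positions, lengths and GC content came from GENCODE v29 on GRCh38, promoters from RefSeq. Protein sequences were not used. Alternatives were DESeq2 1.42.0, limma-voom and limma 3.58.1 on log2(FPKM + 1) or log2(FPKM + 0.1), other scaling factors and filters, a length and GC correction, a replicate block and each library left out.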

Additional observations from a re-analysis of the deposited data

How the results depend on the processing

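The directions of ANKRD1, CCN1, CCN2, TEAD1 and AJUBA held under all 17 alternatives, with log2 fold changes of 1.48 to 1.62, -1.30 to -0.79, 0.40 to 0.80, 0.19 to 0.50 and 0.22 to 0.46. LATS2 was under the filter on low counts. Of 36 tested genes, the pathway list genes that the naming rule picked and SMN1, without AMOT and the cell state markers, 6 lost their call under at least 1 alternative, and TEAD3 turned sign (log2 fold change 0.0397) after the length and GC correction. On log2(FPKM + 1) without a filter 2883 genes were called lower, against 4466. The number of the 10 genes that were lower without overlap was 1, and was 1 to 2 with single libraries left out. WWTR1, AMOTL2 or YAP1 joined CCN1 without the third SMN1-labelled, the first control or the third control library. With the replicate number as a block, 32 list genes were higher and 27 lower, against 32 and 26, and 4 of the 10 genes were called higher and 1 lower, as without it. The labels give the same numbers in both groups without saying that they pair cultures, and same-numbered libraries did not deviate together (correlations 0.0030 to 0.0133). Overlap was not recomputed for limma-voom and the block, which leave the levels as they are. Overlap is not given after the length and GC correction.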
